A study of Mus musculus with 249 samples.

Results

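H2-Bl, a gene of the mouse major histocompatibility complex (MHC) on chromosome 17, was used to divide F2 mice by their brain RNA, and the 62 arrays of lowest H2-Bl were compared with the 62 of highest out of 249. The animals were chosen by their measured H2-Bl value as a stand-in for the MHC haplotype, after leaving out animal 144, and all other genes were compared, those of chromosome 17 apart from the rest. All animals of both groups descend from 1 intercross of mice labelled C57BL/J6 and C3H/HeJ, lack ApoE in their background and received the same fat-rich Western diet between weeks 8 and 24 of life. The cross is labelled as 330 females and males, but neither sex nor genotype nor array batch is stated for an animal. Each brain was hybridised once in Cy3 against a Cy5 pool made from all samples. A value is the log10 of animal over pool, which makes 0 the level of the pool, and the scale ends at -2 and 2. A ratio to a pool of brains does not show whether a gene is expressed, so the tissue could be checked in relative terms only. The mean of 7 neuronal genes on an array lay between -0.0708 and 0.0479 in the low group and between -0.241 and 0.0515 in the high group.

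The MHC is a dense block of immune genes. Class I molecules, made by H2-K, D, Q, T and M genes, bind peptides from inside the cell and show them at its surface with B2m, the light chain they share. The peptides are cut by the proteasome, in part by the inducible subunits Psmb8 and Psmb9, and are carried to class I molecules by the Tap1 and Tap2 transporter. Class II molecules show peptides from outside the cell. The parental strains carry different MHC haplotypes, named b and k, and in an F2 animal long stretches of a chromosome are inherited together. H2-Bl belongs to the class I genes of the T region and is listed by RefSeq as a transcribed pseudogene. In whole brain RNA, fewer cells of a type and less RNA per cell cannot be told apart.

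H2-Bl divided the animals at its lower edge and not at its upper edge. Its values chose the groups and are given as a description. In the low group they ran from -0.658 through a median of -0.436 to -0.321, and in the high group from 0.0940 through 0.203 to 0.395. The mean difference was 0.644, or 4.41-fold. The 62nd array from the bottom stood at -0.321 and the 63rd at -0.282, with 62 arrays under -0.3, 12 from -0.3 to -0.1 and 174 above -0.1. At the upper edge the last array left out stood at 0.0939 and the first taken at 0.0940. The low group thus sits in a part of the range separated from the rest by few arrays, while the high group is the top of a continuous range. The mean of the arrays between, -0.00353, lay 0.68 of the way from the low to the high mean.

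**Figure D1:**
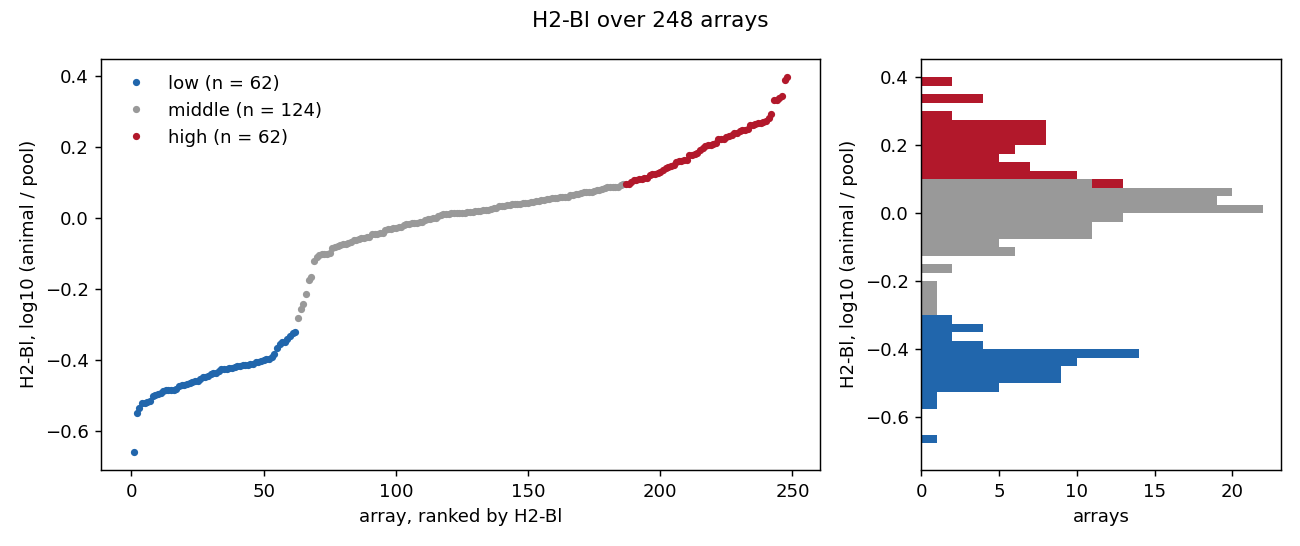
H2-Bl as log10 of animal over pool on all arrays but that of animal 144, ranked on the left (each point 1 array) and as a stacked histogram on the right, with the 62 low arrays in blue, those between in grey and the 62 high in red. The low arrays end at -0.321 where few arrays follow, and the high arrays begin at 0.0940 inside a dense range.

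The other genes that differed between the groups lay mostly on chromosome 17. Of 523 genes measured there besides H2-Bl, 100 (19.1%) differed at an adjusted p under 0.05 (limma, Benjamini-Hochberg over 11507 genes), which is what "called" means here. They were balanced in direction, with 51 higher in the high arrays (9.75%) and 49 lower (9.37%). On the other chromosomes 74 of 10367 genes were called (0.714%), 47 higher (0.453%) and 27 lower (0.26%). Of 617 genes not matched to a RefSeq place 13 were called (2.11%), 6 higher (0.972%) and 7 lower (1.13%). The split by direction on other chromosomes turned between settings: the share higher, 63.5% of the 74, was 37.6% of 420 with arrays divided at the median of H2-Bl, 40% of 65 within the lower animal numbers and 78% of 59 with 31 arrays against 31. Over all genes the share was 1.63%. Outside chromosome 17 the share per chromosome reached at most 1.41%, on chromosome 15, and was 0 of 396 genes on X. Called genes on chromosome 17 also differed by more. Their median absolute difference was 0.0745 (1.19-fold), against 0.0416 (1.10-fold) for called genes elsewhere and 0.00932 over all genes. At least 0.1, or 1.26-fold, was reached by 31 called genes on chromosome 17 and 6 elsewhere. A factor of 2 was reached by 5 and by 0.

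**Figure D2:**
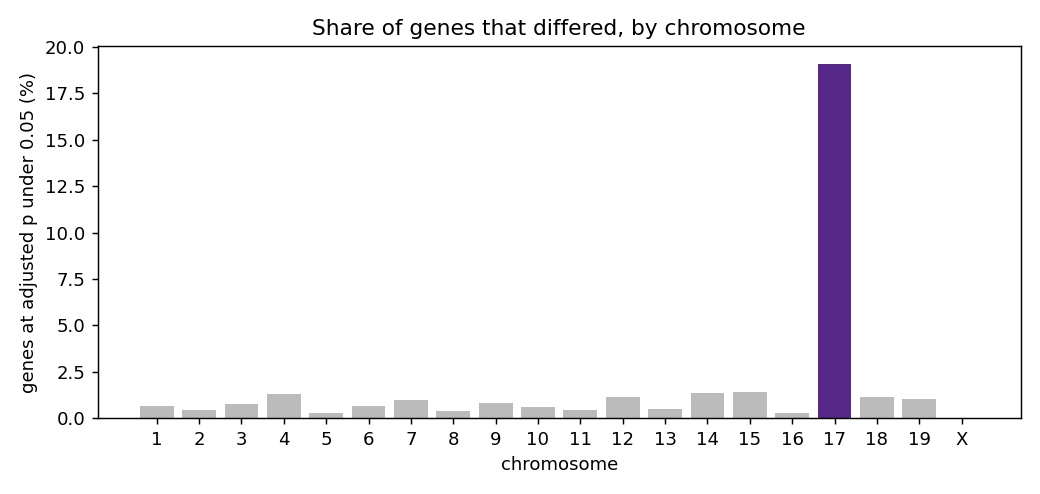
Percent of the genes measured on each chromosome that differed between low and high H2-Bl arrays at an adjusted p under 0.05, with chromosome 17 in purple. Chromosome 17 stands at 19.1% and no other chromosome above 1.41%.

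The same pattern was present among animals of low and of high number, divided at the median number because no batch is labelled. Within the lower numbers, with 32 low and 36 high arrays, 77 genes on chromosome 17 were called, 72 of them among the 100. Within the higher numbers, with 30 low and 26 high arrays, 70 were called, all 70 of them among the 100. On other chromosomes 65 and 21 genes were called, of which 34 and 19 were among the 74. Both sets of animals are parts of the arrays that gave the 100 and the 74, so some of this overlap was built in. The spread of an array over its genes had a median of 0.0811 in the low and 0.0839 in the high group. Eif2s3y, on the Y chromosome, differed by 0.17 ± 0.168 (SE, n = 62 and 62, limma adjusted p = 0.65), and its groups overlapped. It ran from -1.785 through a median of -1.482 to 0.501 in the low arrays. In the high arrays it ran from -1.99 through -0.0488 to 0.476. The medians lay far apart, while the means were -0.811 in the low and -0.641 in the high arrays, with SDs of 0.946 and 0.950. Sex is not labelled, and whether the groups hold the sexes in like shares was not tested.

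Genes called on chromosome 17 reached from the start of the chromosome to well past the MHC. Positions are places counted from H2-Bl among the measured genes in the order of GRCm38.p6, where the next gene is at 1, with 308 genes before H2-Bl and 214 after it, while H2-Q8 had no usable place. Of the genes before H2-Bl 77 were called, and of those after it 22. Among the 50 nearest before H2-Bl 8 were called (16%), and among the next 50, from Zfp101 to C4b, 16 (32%). Farther out in steps of 50 the counts were 10, 9, 17 and 13, and 4 of the 8 genes at the start. The share called therefore did not fall with distance on this side. After H2-Bl it did, from 10 of the nearest 50 and 7 of the next 50 to 1, 4 and, in the last 14 genes, 0. The distal end thus had shares between 0 and 8.0%, against 0.714% on other chromosomes.

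**Figure D3:**
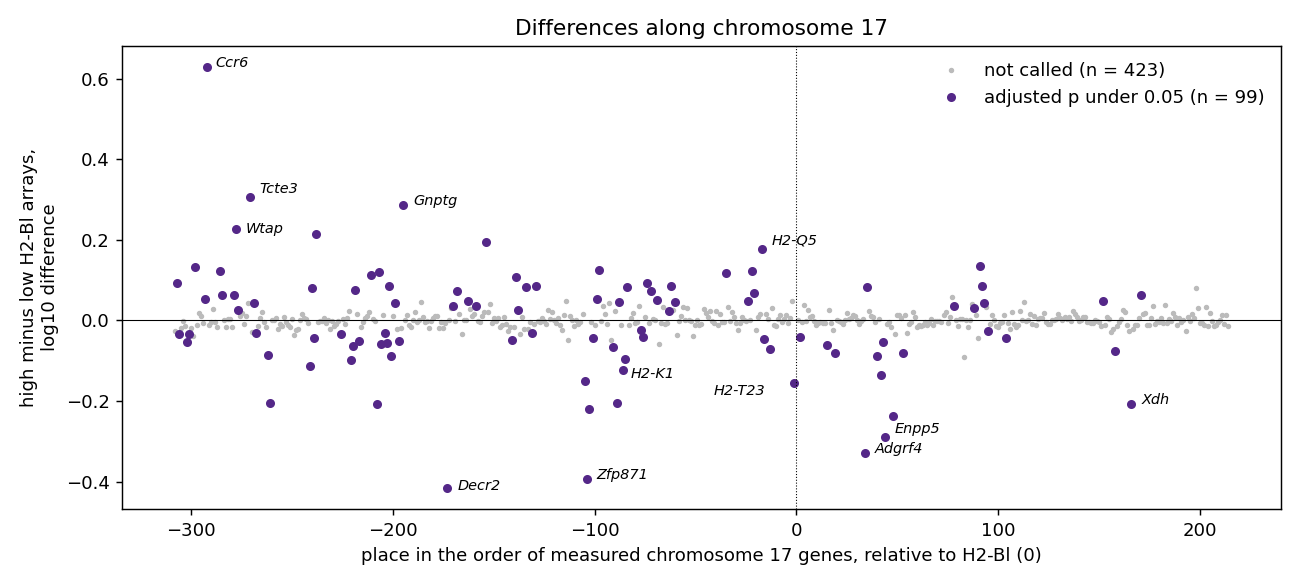
Difference between the mean of high and low H2-Bl arrays (log10) for each measured gene of chromosome 17, by its place in the gene order relative to H2-Bl, which is at 0. The 99 called genes with a place (purple) lie on both sides of 0, with Ccr6 highest at 0.629 and Decr2 lowest at -0.416, and thin out to the right.

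Among class I genes H2-Q5 was higher in the high arrays and 6 others were lower. Of 18 measured class I genes besides H2-Bl 7 were called (38.9%, against 19.1% over chromosome 17 and 1.63% over all genes), 1 higher in the high arrays and 6 lower, and the median difference over the 18 was -0.000422, against -0.000776 over all genes. H2-Q5, a transcribed pseudogene of the Q region, followed H2-Bl. In the low arrays it ran from -0.175 through a median of -0.111 to 0.0943, and in the high arrays from -0.0519 through 0.0788 to 0.161. All 62 high arrays lay above the low median, and 60 low arrays lay below the lowest high array. The difference was 0.178 ± 0.00789 (SE), or 1.51-fold (limma adjusted p = 7.29e-42), the smallest p of all genes. Over all arrays but that of animal 144, its Pearson r with H2-Bl, which shares these arrays and their pool, was 0.83, the highest of all genes.

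H2-T23, the gene of Qa-1, whose product is recognised by receptors of natural killer cells, went the other way and is next to H2-Bl in the order. Its low arrays ran from -0.0579 through 0.0119 to 0.124 and its high arrays from -0.236 through -0.159 to 0.0103. No high array reached the low median, and 57 lay below the lowest low array. The difference was -0.156 ± 0.00797 (1.43-fold, limma adjusted p = 1.86e-36). H2-T9, another T region gene that was not matched to a RefSeq place, was lower by a similar amount, -0.164 ± 0.0101 (1.46-fold, adjusted p = 1.55e-29), with 47 low arrays outside the range of the high ones. H2-K1, a classical class I gene found 86 genes before H2-Bl, ran from -0.136 through -0.0292 to 0.0575 in the low and from -0.302 through -0.164 to 0.0129 in the high arrays. These groups overlapped, with 40 high arrays below all low ones and 4 above the low median. H2-K1 differed by -0.124 ± 0.0106 (1.33-fold, limma adjusted p = 2.54e-19).

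Smaller differences of the same sign were seen in 3 further class I genes. H2-M3, which presents bacterial peptides that begin with formylmethionine, differed by -0.0814 ± 0.00933 (1.21-fold), H2-Q8 by -0.073 ± 0.0101 (1.18-fold) and H2-Q7, the gene of Qa-2, by -0.0458 ± 0.0058 (1.11-fold). Each had a limma adjusted p of 1.01e-08 or less. The other 11 differed by less than 0.05 and were not called: H2-T24 stood at 0.0493 (adjusted p = 0.0805), H2-M10.4 at 0.0376 and H2-T3, next to H2-Bl on its far side, at 0.000613. Class I genes are alike in sequence, and probe sequences are not used here, so binding of one gene's RNA to another gene's probe was not tested. The 2 neighbours of H2-Bl in the order, H2-T23 and H2-T3, thus differed by -0.156 and 0.000613.

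The promoters of the 4 called class I genes that RefSeq's table holds, and of the transporter gene Tap1, which was not called, are shown to set the sequences of genes that were lower together beside one that was not. They are the 250 bases before the start from RefSeq (GRCm38.p6), read 5′ to 3′ on the strand of the gene. H2-Bl, H2-Q5, H2-Q8 and H2-T9 were not matched. Capitals mark the letters GGGATTCCC (a kappa B site of class I enhancers), TGACGC (the core of the X2 box, bound by the factors that also act on class II promoters) and GAAANNGAA (from the interferon-stimulated response element), each searched on both strands.
H2-K1, chr17:34000348-34000597, minus strand: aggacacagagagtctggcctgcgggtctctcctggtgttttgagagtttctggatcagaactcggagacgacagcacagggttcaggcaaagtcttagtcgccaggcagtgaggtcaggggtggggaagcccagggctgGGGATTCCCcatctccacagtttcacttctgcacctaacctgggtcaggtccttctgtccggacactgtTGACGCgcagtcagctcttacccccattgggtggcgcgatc
H2-Q7, chr17:35438905-35439154, plus strand: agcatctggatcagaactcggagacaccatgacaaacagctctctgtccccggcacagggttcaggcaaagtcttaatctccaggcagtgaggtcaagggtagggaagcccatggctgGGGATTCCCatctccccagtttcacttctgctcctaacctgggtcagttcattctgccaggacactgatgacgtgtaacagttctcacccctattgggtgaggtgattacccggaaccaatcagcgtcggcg
H2-M3, chr17:37269984-37270233, plus strand: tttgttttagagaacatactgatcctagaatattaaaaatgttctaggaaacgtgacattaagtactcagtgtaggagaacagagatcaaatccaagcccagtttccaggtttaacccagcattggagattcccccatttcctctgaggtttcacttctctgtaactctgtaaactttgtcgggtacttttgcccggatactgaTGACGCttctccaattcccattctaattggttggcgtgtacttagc
H2-T23, chr17:36032702-36032951, minus strand: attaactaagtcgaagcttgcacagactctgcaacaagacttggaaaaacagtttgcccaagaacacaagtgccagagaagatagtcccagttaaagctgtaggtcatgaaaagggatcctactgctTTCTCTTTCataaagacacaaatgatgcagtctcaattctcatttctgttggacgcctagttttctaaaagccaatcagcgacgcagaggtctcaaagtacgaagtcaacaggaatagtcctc
Tap1, chr17:34187306-34187555, plus strand: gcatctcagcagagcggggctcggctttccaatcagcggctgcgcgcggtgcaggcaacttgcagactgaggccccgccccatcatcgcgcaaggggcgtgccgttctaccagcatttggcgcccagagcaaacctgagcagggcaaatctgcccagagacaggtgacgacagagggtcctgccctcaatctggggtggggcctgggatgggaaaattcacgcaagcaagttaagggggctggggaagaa
Of 32851 promoter windows of this length 0.301% held the kappa B letters, 6.12% the X2 letters and 7.13% the interferon letters. H2-K1, of whose 2 listed windows the first is printed, held the kappa B and the X2 letters, H2-Q7 the kappa B letters, H2-M3 the X2 letters and H2-T23 the interferon letters. Tap1 held none of them, and neither did the windows of Psmb9 and Psmb8, which were called higher. B2m, which is off chromosome 17 and was not called, held the interferon letters. None of the 3 sets of letters was common to the 4 class I windows. Only these exact letters were searched, so a window without a match may hold another form of the same element. A match is a description of letters and not a binding site.

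Among the genes that prepare peptides, only the 2 proteasome subunits of the MHC were called. Of 17 measured genes of antigen processing 2 were called (11.8%), both higher in the high arrays. Of the 17, 12 are not on chromosome 17, and the shares called are 19.1% there and 0.714% on other chromosomes. Psmb9 ran from -0.282 through -0.182 to 0.00795 in the low and from -0.201 through -0.0844 to 0.0738 in the high arrays. The groups overlapped, and 56 of 62 high arrays lay above the low median. It differed by 0.0935 ± 0.0113 (1.24-fold, limma adjusted p = 4.90e-11), and Psmb8 by 0.0725 ± 0.0089 (1.18-fold, adjusted p = 8.74e-11), also with 56 high arrays above the low median.

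Tap1 lies between Psmb9 and Psmb8 in the order and starts beside Psmb9 in the opposite direction, so that the window printed for it overlaps the one before Psmb9. Tap1 ran from -0.0964 through -0.011 to 0.369 in the low and from -0.189 through -0.0138 to 0.105 in the high arrays. Its groups overlapped almost fully and it differed by -0.0077 ± 0.0093 (limma adjusted p = 0.723). Tap2, the other transporter subunit, differed by 0.00393 ± 0.0108 (adjusted p = 0.883) and Tapbp, tapasin, which holds class I molecules at the transporter, by 0.0444 ± 0.0156 (adjusted p = 0.162). Off chromosome 17, B2m differed by -0.0112 ± 0.0150 (adjusted p = 0.753), Nlrc5, the activator of class I genes, by -0.00512 ± 0.0053 and Ciita, that of class II genes, by -0.00224 ± 0.0054. None of these 3 was called. A probe under the older symbol AI451557, now Nlrc5, differed by -0.00015 (adjusted p = 0.997).

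Of 9 measured class II genes 3 were called (33.3%, against 19.1% over chromosome 17), 1 higher in the high arrays and 2 lower. The 9 differences lay between -0.0583 and 0.0497 with a median of -0.00364. H2-Aa, the alpha chain of the A molecule, was higher in the high arrays by 0.0497 ± 0.0089 (1.12-fold, limma adjusted p = 2.20e-05), with 50 high arrays above the low median. The peptide exchange genes H2-DMb2 and H2-DMa were lower by 0.0402 ± 0.0049 and 0.0243 ± 0.0050 on the log10 scale (1.10-fold and 1.06-fold, adjusted p = 4.90e-11 and 0.000344), each with 5 or fewer high arrays above the low median. H2-Eb1 differed by -0.0583 ± 0.0209 (adjusted p = 0.175) and H2-Ea by 0.0323 ± 0.0124 (adjusted p = 0.223), and neither was called. H2-Ea was called with the values quantile normalized (0.0385, adjusted p = 0.0186), without the arrays of largest spread (0.0401, adjusted p = 0.00908) and within the lower animal numbers (0.0532, adjusted p = 0.0102). H2-DMa was not called against all 186 other arrays (-0.0127, adjusted p = 0.173) or within the higher animal numbers (-0.0241, adjusted p = 0.326), and H2-Aa was not called with arrays divided at the median of H2-Bl (0.0137, adjusted p = 0.349).

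**Figure D4:**
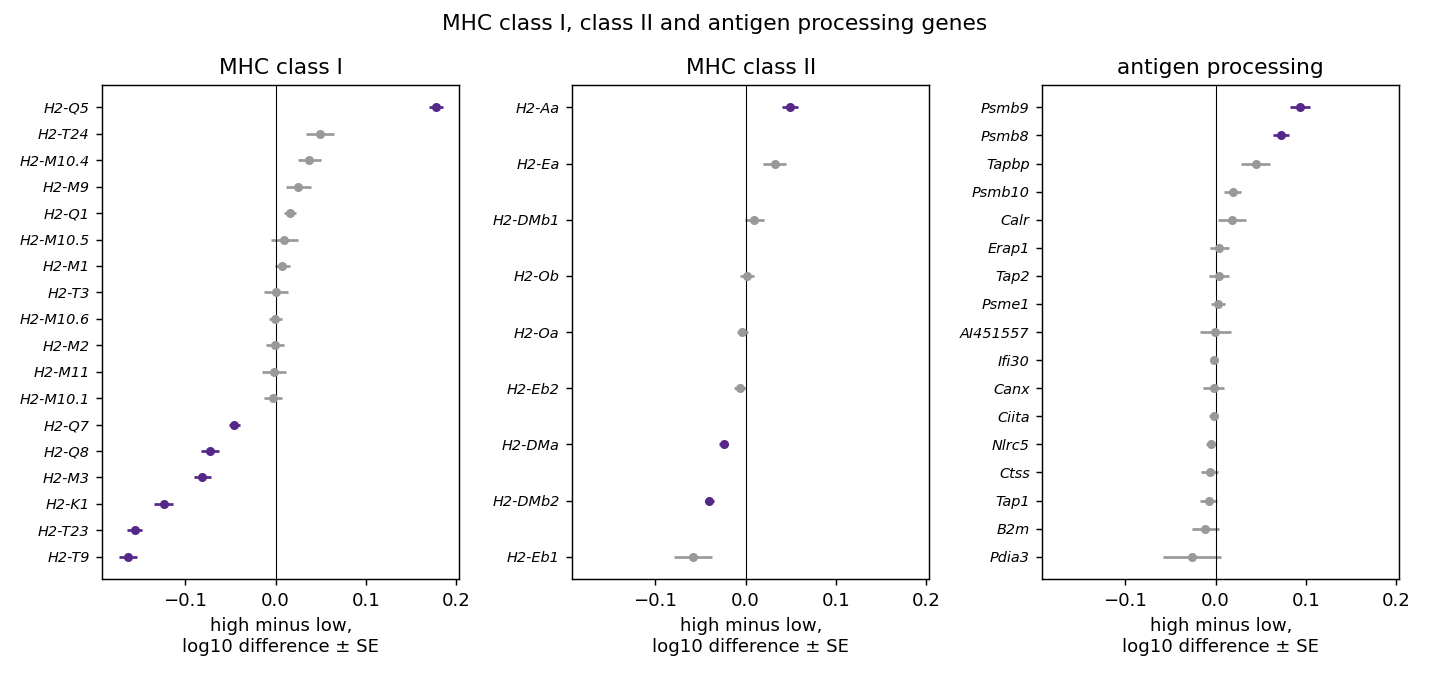
Difference between high and low H2-Bl arrays (log10, point, with its standard error as bar) for the measured genes of 3 lists, in purple where the adjusted p was under 0.05. H2-Q5 lies apart at 0.178 and 6 class I genes lie below 0, down to H2-T9 at -0.164, while Psmb9 and Psmb8 stand above 0.

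Genes between and around the class I and class II genes were called at shares between 13.3% and 33.3%, against 19.1% over chromosome 17. In the class III region 6 of 45 were called (13.3%), all higher in the high arrays. Lta, the cytokine lymphotoxin alpha, differed by 0.124 ± 0.0101 (1.33-fold, limma adjusted p = 1.34e-20), with 61 of 62 high arrays above the low median. Vwa7 differed by 0.117 ± 0.0243 (1.31-fold), Notch4, a receptor of the Notch family, by 0.0846 ± 0.0104 (1.22-fold), Nfkbil1 by 0.0691 ± 0.0191, Ltb, lymphotoxin beta, by 0.0477 ± 0.0126 and Pbx2, a homeobox gene, by 0.0445 ± 0.0104. With the 62 lowest set against all 186 other arrays, where 15.7% of chromosome 17 was called, 4 of these genes were no longer called: Vwa7 (0.069, adjusted p = 0.0879), Nfkbil1 (0.0335, 0.535), Ltb (0.0282, 0.238) and Pbx2 (0.0269, 0.0627). Nfkbil1, Ltb and Pbx2 were also not called within the lower or within the higher animal numbers, and Vwa7 not within the higher. In the extended class I region 3 of 22 were called (13.6%), all lower. Mog, a glycoprotein of the myelin surface, differed by -0.0621 ± 0.0049 (1.15-fold, adjusted p = 2.26e-21), with no high array above the low median. It was the only called one of 9 measured oligodendrocyte markers. Cchcr1 differed by -0.072 ± 0.0123 and Trim39 by -0.0406 ± 0.0079. With arrays divided at the median of H2-Bl neither was called, at -0.0236 (adjusted p = 0.0767) and -0.00122 (0.939), nor with 31 arrays against 31, at -0.046 (0.23) and -0.0244 (0.231). Trim39 was not called either with the slope over all arrays (adjusted p = 0.0627) or within the higher animal numbers (0.562).

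In the extended class II list 6 of 18 were called (33.3%), 3 in each direction. B3galt4, an enzyme of ganglioside synthesis, differed by -0.206 ± 0.0180 (1.61-fold, limma adjusted p = 1.33e-18), Ring1, a Polycomb protein, by -0.0963 ± 0.0116 (1.25-fold) and Pfdn6, a prefoldin subunit, by -0.0661 ± 0.0103 (1.16-fold). The 2 probes of Pfdn6 did not agree, with -0.126 for one and -0.00651 for the other. Rps18, a ribosomal protein gene, was higher by 0.0451 ± 0.0048 (1.11-fold, adjusted p = 1.19e-13), and all 3 of its probes were called. Kifc5b differed by 0.0473 ± 0.0129, with 1 probe at 0.0146 (adjusted p = 0.702) and the other at 0.0799 (1.66e-05), and Lemd2 by 0.0348 ± 0.0092, and neither was called against all 186 other arrays (adjusted p = 0.717 and 0.519). Kifc5b and Lemd2 were also not called within the lower or within the higher animal numbers. Around Glo1, a region where inbred strains differ in copy number, 3 of 10 measured genes were called, and 2 of the 10 were not placed on chromosome 17. The called genes were Btbd9 (0.0853 ± 0.0127, 1.22-fold), Fgd2 (0.0823 ± 0.0063, 1.21-fold) and Rnf8 (-0.0317 ± 0.0062). Rnf8 was not called with 31 arrays against 31 (limma adjusted p = 0.126) or within the lower animal numbers (0.11). With arrays divided at the median of H2-Bl it was not called either (0.147).

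The largest differences on chromosome 17 were not in the MHC. Ccr6, a chemokine receptor gene 292 genes before H2-Bl, ran from -0.838 through -0.588 to 0.211 in the low and from -0.0854 through 0.209 to 0.442 in the high arrays. Of the low arrays 50 lay below every high array and 12 lay among them. It differed by 0.629 ± 0.0382 (4.25-fold, limma adjusted p = 6.94e-30), close in size to the difference in H2-Bl itself. Tcte3, a dynein light chain gene, differed by 0.306 ± 0.0216 (2.02-fold), and Gnptg, a subunit of the enzyme that tags lysosomal proteins, by 0.286 ± 0.0177 (1.93-fold). Gnptg had 61 of 62 high arrays above the low median, and 36 of them outside the range of the low arrays.

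Other genes higher in the high arrays were called with differences between 0.112 and 0.226. Wtap, of the complex that methylates adenosine in mRNA, differed by 0.226 ± 0.0139 (1.68-fold), carried by 1 probe at 0.430 while the other stood at 0.0217 and was not called. Srrm2, a splicing factor, differed by 0.214 ± 0.0155, Rps2-ps9 by 0.195 ± 0.0142, Unc5cl by 0.135 ± 0.0183 and Dynlt1b, a dynein light chain, by 0.134 ± 0.0107. Pram1, an adaptor of myeloid cells, differed by 0.126 ± 0.0107, Plg, plasminogen, by 0.122 ± 0.0102, and Npw, a neuropeptide, by 0.112 ± 0.0094. In Dynlt1b, Pram1, Plg and Npw all 62 high arrays lay above the low median.

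Rps2, a ribosomal protein gene of many processed copies, had 13 probes that did not move together. Their mean differed by 0.120 ± 0.0068 (1.32-fold, limma adjusted p = 2.30e-32). Of the probes 9 were called higher, 1 was called lower (-0.178, 1.51-fold) and 3 were not called. The 8 highest lay between 0.183 and 0.226. RNA of Rps2 and of copies such as Rps2-ps9 cannot be told apart by name, so the gene's value is uncertain.

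Genes lower in the high arrays had differences of like size. Decr2, a peroxisomal reductase of fatty acid breakdown, ran from -0.158 through 0.187 to 0.331 in the low and from -0.569 through -0.325 to 0.169 in the high arrays. No high array reached the low median, and 44 lay below every low array. It differed by -0.416 ± 0.0270 (2.61-fold, limma adjusted p = 8.33e-28). Zfp871, a zinc finger gene, differed by -0.394 ± 0.0255 (2.48-fold), with 1 high array above the low median. These 2 genes lie 173 and 104 genes before H2-Bl.

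Enpp5, of the ectonucleotide phosphodiesterase family, lies 44 genes after H2-Bl. It ran from -0.0517 through 0.107 to 0.327 in the low and from -0.331 through -0.201 to -0.00811 in the high arrays, so that 61 low arrays lay above every high array, the most of all named genes. The difference was -0.290 ± 0.0140 (1.95-fold, limma adjusted p = 1.79e-38), the second smallest p after H2-Q5. Adgrf4, an adhesion receptor gene 34 genes after H2-Bl, differed by -0.329 ± 0.0181 (2.13-fold), with 51 high arrays below every low array. Apart from H2-Bl itself, the low and high arrays of every gene overlapped, in all 11507.

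Further genes lower in the high arrays included several enzymes. Aars2, the mitochondrial alanyl-tRNA synthetase, differed by -0.238 ± 0.0152 (1.73-fold), Cyp4f14 and Cyp4f15, fatty acid hydroxylases, by -0.220 ± 0.0126 and -0.151 ± 0.0118, and Gfer, a sulfhydryl oxidase, by -0.208 ± 0.0167. Xdh, xanthine dehydrogenase, differed by -0.206 ± 0.0225 (1.61-fold, limma adjusted p = 3.70e-13) although it lies 166 genes after H2-Bl, where few genes around it were called. Riok2, a kinase of ribosome assembly, differed by -0.204 ± 0.0154, Cyp39a1, an oxysterol hydroxylase, by -0.137 ± 0.0246 and Pkmyt1, a kinase that restrains cell division, by -0.114 ± 0.0134. Cyp39a1 was not called within the lower animal numbers (limma adjusted p = 0.0706).

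**Figure D5:**
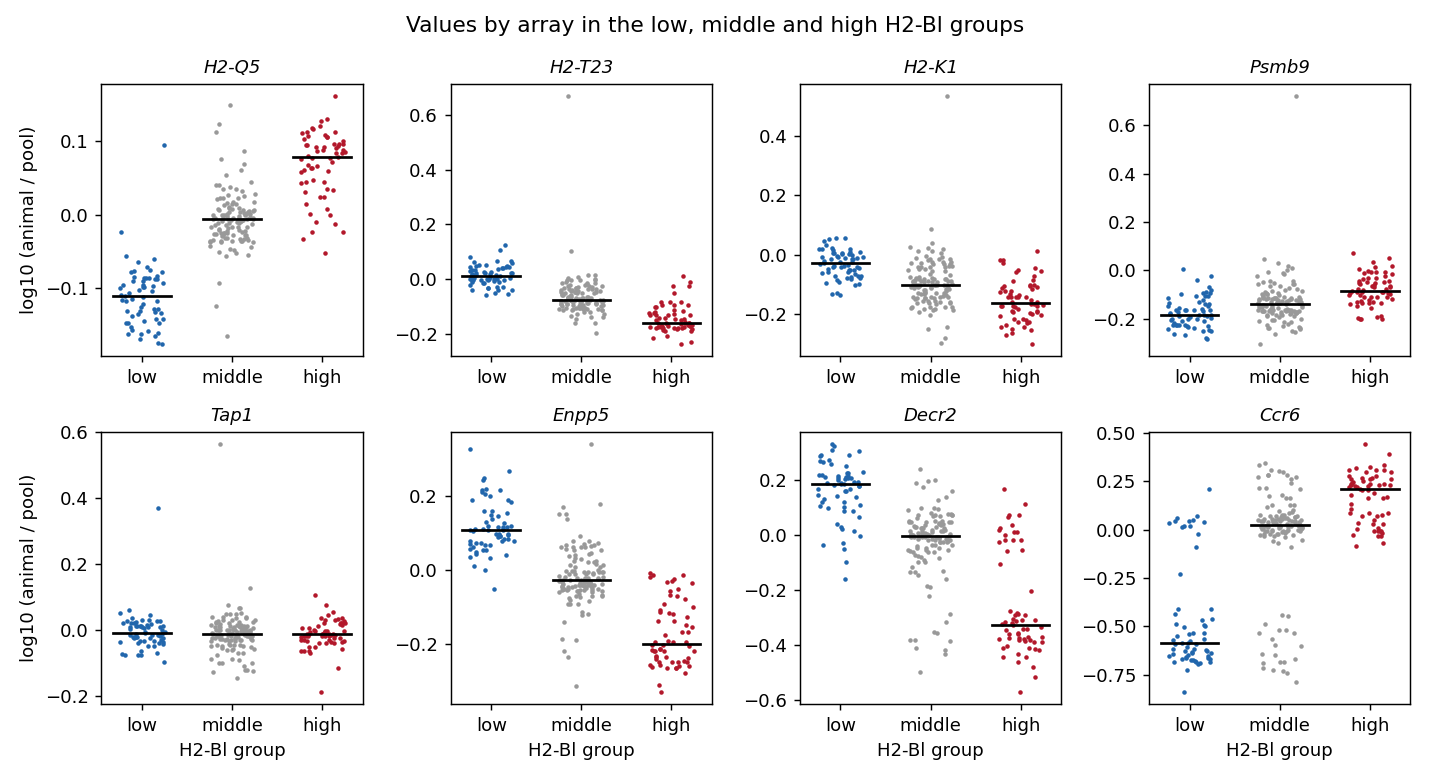
Log10 of animal over pool in each array of the low (blue, n = 62), middle (grey) and high (red, n = 62) H2-Bl groups for 8 genes, with the group median as a black line. H2-Q5 and Ccr6 step up and H2-T23, H2-K1, Enpp5 and Decr2 step down, while Tap1 medians lie near 0, and 12 low arrays of Ccr6 lie among the high ones.

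The arrays between the extremes stood between them for these genes. In each of the 100 called genes on chromosome 17 the mean of the middle arrays lay between the low and the high mean, as it did in 73 of the 74 called elsewhere. Genes were called because their low and high means differ, so a middle mean between them was likely in advance. The middle mean was at 0.531 of the way from low to high in the median gene, with quartiles of 0.459 and 0.60, compared with 0.68 for H2-Bl. Ccr6 stood at 0.661, Gnptg at 0.657, Enpp5 at 0.466, H2-T23 at 0.493 and Zfp871 at 0.326. The 10 genes whose values were most like H2-Bl by absolute Pearson r over all arrays but that of animal 144 were H2-Q5 (0.83), Enpp5 (-0.76), Gnptg (0.76), Cyp4f14 (-0.72), Wtap (0.72), Rps2 (0.71), Fgd2 (0.69), Decr2 (-0.68), Adgrf4 (-0.68) and Rps2-ps9 (0.68). All lie on chromosome 17, and the arrays share 1 pool.

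Within the middle arrays the share of genes that followed H2-Bl was similar on chromosome 17 and elsewhere. The slope of each gene on H2-Bl over these arrays, which the low and high groups do not contain, was called for 19 of 523 genes on chromosome 17 (3.63%) and 307 of 10367 elsewhere (2.96%). Of the 74 genes called elsewhere between low and high arrays, 2 had a called slope in the middle arrays and 49 a slope of the same sign. Of the 100 genes above on chromosome 17, 6 were called in the middle arrays, all in the same direction, and 64 had a slope of the same sign. Vwa7 had a slope of 1.05 ± 0.148 (log10 per log10 of H2-Bl, limma adjusted p = 8.44e-07), and Pram1 one of 0.306 ± 0.0615 (adjusted p = 0.000923). H2-DMa (-0.131 ± 0.0324), Cyp4f15 (-0.236 ± 0.0702), Daam2 (0.241 ± 0.0574) and Lemd2 (0.177 ± 0.0478) were the others. Without the 12 middle arrays whose H2-Bl was at or under -0.1 the slope of Cyp4f15 stood at -0.039 (adjusted p = 0.868). H2-Q5, Enpp5, H2-T23 and Ccr6 had no called slope (adjusted p = 0.421, 0.512, 0.448 and 0.923).

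A cerebellar list and a few arrays moved with H2-Bl in the middle range. Of 6 measured cerebellar genes 5 had a called slope, all positive, among them Gabra6, a receptor subunit of granule cells (1.99 ± 0.429, limma adjusted p = 0.00199), Cbln1 (0.925 ± 0.201) and Pcp2 of Purkinje cells (0.681 ± 0.135). Without the 12 middle arrays at or under -0.1, 0 of the 6 were called (Gabra6 0.103, adjusted p = 0.924), 43 genes on chromosome 17 were called (8.22%) and 883 elsewhere (8.52%). That setting was chosen after the values were seen. Between low and high arrays 0 of the 6 cerebellar genes were called, where the share on other chromosomes was 0.714%.

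Some of the clearest differences belonged to genes placed on other chromosomes. Sit1, an adaptor of lymphocytes placed on chromosome 4, ran from -0.459 through -0.174 to 0.108 in the low and from -0.125 through 0.0862 to 0.357 in the high arrays. It differed by 0.230 ± 0.0188 (1.70-fold, limma adjusted p = 1.51e-20), and Syt14, a synaptotagmin placed on chromosome 1, by 0.223 ± 0.0187 (1.67-fold, adjusted p = 9.42e-20). In both all 62 high arrays lay above the low median. Fgfr2, a growth factor receptor placed on chromosome 7, differed by 0.185 ± 0.0180 (1.53-fold), Dvl3 of the Wnt pathway on chromosome 16 by -0.139 ± 0.0135 (1.38-fold) and Foxo3, a transcription factor on chromosome 10, by 0.111 ± 0.0140 (1.29-fold). All 5 were called within the lower and within the higher animal numbers.

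Probes told apart what a symbol joined in 1 of these genes. Trip12, on chromosome 1, differed by 0.0867 ± 0.0095, but 1 of its 2 probes stood at 0.187 (1.54-fold, limma adjusted p = 3.71e-15) and the other at -0.0133 (adjusted p = 0.482). Both probes of Prl2c3, on chromosome 13, were lower, by 0.113 and 0.109 on the log10 scale. The other 3 of the 10 largest were Nlrp5 (-0.0941, adjusted p = 0.0188), Fgf6 (0.0819, 0.0282) and Acer2 (0.0766, 0.0332). None of these 3 was called within the lower (adjusted p = 0.138, 0.359 and 0.0552) or the higher animal numbers (0.852, 0.053 and 0.852). Nlrp5 stood at -0.0229 (adjusted p = 0.486) with arrays divided at the median of H2-Bl, and Fgf6 and Acer2 were not called against all 186 other arrays (0.0674 and 0.0619). Among genes without a place, 608 of the 617 carried symbols in capitals. Symbols were matched to RefSeq in their exact case, so these genes may lie on any chromosome, chromosome 17 included. RNF151 was the largest at 0.388 ± 0.0419 (2.45-fold, adjusted p = 2.22e-13), with all 62 high arrays above the low median and the lowest low array at the limit of -2. PHLPPL differed by 0.148 ± 0.0158 (1.41-fold), SMCHD1 by 0.0749 ± 0.0157 and IFI35 by 0.0533 ± 0.0076. SMCHD1 was not called within the lower (limma adjusted p = 0.0552) or the higher animal numbers (0.174), nor with 31 arrays against 31 (0.266). Whether the probes of these genes detect the gene that names them was not tested.

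No listed marker of a cell type or of the interferon response off chromosome 17 was called. IFI35, named for interferon and called among the genes without a place, was not a measured member of the lists. The 14 lists held 127 measured genes off chromosome 17, of which 0 were called by limma and 14 had an unadjusted p under 0.05 (11.0%, against 12.9% of all genes on other chromosomes). Only 0.714% of all genes on other chromosomes were called, so a count of 0 in lists of this size does not set them apart. Of the 25 measured genes of the interferon list 0 were called by limma, with a smallest adjusted p of 0.18, for Irf9. The score of these genes had a median of 0.074 in the low and -0.0853 in the high group (mean z). Their mean level on an array ran from -0.103 through a median of -0.0292 to 0.0281 in the low group and from -0.119 through -0.0359 to 0.106 in the high group. With the mean z score of the interferon genes as a covariate H2-T23, H2-K1, Psmb8 and Psmb9 were called (limma adjusted p = 6.10e-38, 5.57e-20, 3.38e-17 and 3.92e-16). Whether the interferon response contributes to their differences was not tested. For microglia, which express MHC genes in brain, 0 of 10 were called, and their mean level ran from -0.158 through -0.0267 to 0.114 and from -0.115 through 0.00403 to 0.162. For lymphocytes 0 of 14 were called, at -0.121 through -0.0837 to 0.0714 and -0.138 through -0.0898 to -0.0338. Of the lung list 0 of 9 were called. Its mean level ran from -1.11 to -0.873 in the low and from -1.12 to -0.839 in the high arrays. Every array of both groups thus lay below the pool for this list, and the cause was not tested. Of the pituitary list 0 of 6 were called, the means of which ran from -1.0 to 0.551 in the low and from -0.998 to 0.696 in the high arrays.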

How the data were processed

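Brain RNA was measured on 249 arrays with 2 colours, and all but that of animal 144 were used. The values the authors deposited are on a log10 scale, animal over pool, with the dyes per the labels and the base and limits read from the values. What was done at the scanner, to the background and to normalize the dyes is not stated in these sources. Array medians lay between -0.00627 and 0.0250. Whether arrays were centred before deposit is not given in the sources used here. Of all values 0.71% were missing.

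Of 23388 probes 13645 carried 1 symbol, 48 several and 9695 none. The 13444 measured on at least 90% of arrays gave 11508 genes, each the mean of its probes. Gaps took the mean of that probe over animals, and H2-Bl, with 1 probe, had none. RefSeq (GRCm38.p6) placed 10891 genes and was used for names, order and promoter windows. For 1 sample title and source name differ in animal number, and the source name was used.

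Groups were compared with limma 3.58.1 (R 4.3.3), without covariates, and the slope in the middle arrays likewise. On simulated data with 11507 genes, 82 of 100 shifts of 0.05 and 98 of 100 of 0.1 were recovered, with 13 false calls. Whether these counts carry over to the measured arrays was not tested. Members, lists and settings were chosen with earlier results of these data known. Named genes were the 15 largest called differences in each direction on chromosome 17, the 10 largest elsewhere, the 5 largest without a place, members of the MHC class I, class II and antigen processing lists, called members of the other lists, the 10 most correlated with H2-Bl, and Ccr6, B2m, Ciita, Nlrc5 and Eif2s3y. Daam2, Irf9, the cerebellar genes and the motif letters were chosen after values were seen. With 1 more letter, C at the end of the kappa B letters, H2-Q7 no longer matched. The number of arrays limits the precision.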

Additional observations from a re-analysis of the deposited data

How the results depend on the processing

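The count of called genes on chromosome 17 lay between 70 and 119 in the 16 other settings tried, against 100. The share higher in the high arrays lay between 46.8% and 52.6% in the settings that fit genes. On other chromosomes the count, 74, became 140 with the slope on H2-Bl over all arrays, 420 with arrays divided at the median of H2-Bl (44 of them among the 74), 21 within the higher animal numbers and 38 with the 62 lowest against the other 186, a setting chosen after the values were seen. For genes without a place the count, 13, became 4 with 31 against 31 arrays, 22 with arrays divided at the median and 4 within the higher numbers. In the middle arrays above -0.1, also chosen later, the 19 called slopes on chromosome 17 became 43 and the 307 elsewhere 883. The cause of these changes was not tested. Of 101 named genes 0 changed direction with a call. Of the 68 called, 52 were called in every setting. Calls were lost for 9 genes with 31 against 31 arrays, 7 with arrays divided at the median, 9 with 62 against 186, 11 and 12 within lower and higher numbers, and 2 with the slope. H2-T24, not called, was called when values were quantile normalized (0.0606, limma adjusted p = 0.000571), without the 12 arrays of largest spread (0.0552, 0.00124) and against the other 186 (0.0428, 0.0176). List medians near 0 changed sign between settings, as for class I genes (0.00303 without the 12 arrays of largest spread). No paired analysis was possible because the labels give 1 group of animals.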
